A study of Mus musculus and Homo sapiens with 176 samples.

Results

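The genes described here are a group of 7 that mark, or act in, the lineage of cerebellar granule neurons and its relatives in the cortex: Neurod1, Neurod2, Neurod6, Pax6, Eomes, Fat2 and Etv1. They were chosen by gene symbol, and all 7 were found among the 24854 features of the deposited nuclear RNA tables. All 7 also passed the filter on low values (at least 1 FPKM in at least 2 libraries), as did 14376 features in all. FPKM, the fragments of a gene scaled by transcript length and sequencing depth, is a level per length, so that levels of different genes may be set side by side.

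The RNA came from nuclei of cerebellum and prefrontal cortex of mouse M3, 1 of the study's C57BL/6 animals aged 8 to 10 weeks, with no genotype or treatment named. Nuclei were sorted by staining for NeuN, the neuronal nuclear protein encoded by Rbfox3, into 4 groups of 2 libraries: cerebellar NeuN+, cerebellar NeuN-, prefrontal NeuN+ and prefrontal NeuN-. The series set out to compare neurons with glia in both regions. All 8 libraries came from that animal, and nothing says that they came from separate sorts, so each p-value measures only how libraries of a group differ, which may be technical, and says nothing of variation among mice.

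NeuroD1, NeuroD2 and NeuroD6 are basic helix-loop-helix transcription factors that bind short DNA elements called E-boxes as dimers with the widely expressed E-proteins, and Id proteins block such dimers by taking up the E-protein. In the mouse, Neurod1 is required for granule neurons of the cerebellum to differentiate and survive, Neurod2 is used by both granule neurons and cortical excitatory neurons, and Neurod6 is a mark of cortical projection neurons. Pax6, a paired-domain and homeodomain factor, is carried by granule neurons from their progenitors onward and is also found in astrocytes of the adult cortex. Eomes, a T-box factor, marks unipolar brush cells in the adult cerebellum; Fat2 is a large atypical cadherin of granule cells and their parallel fibres; Etv1, an ETS factor, is found in maturing granule neurons and in deep-layer pyramidal neurons of the cortex.

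Because NeuroD factors act through E-boxes, the upstream sequences of the 3 NeuroD genes are shown before their levels. Each line holds the 250 bases before the annotated start, from RefSeq on GRCm38.p6, 5′ to 3′ on the gene's strand, with every CANNTG E-box in capitals. Neurod1 is at chr2:79456637-79456886, Neurod2 at chr11:98329646-98329895 and Neurod6 at chr6:55681264-55681513, all on the minus strand.
Neurod1: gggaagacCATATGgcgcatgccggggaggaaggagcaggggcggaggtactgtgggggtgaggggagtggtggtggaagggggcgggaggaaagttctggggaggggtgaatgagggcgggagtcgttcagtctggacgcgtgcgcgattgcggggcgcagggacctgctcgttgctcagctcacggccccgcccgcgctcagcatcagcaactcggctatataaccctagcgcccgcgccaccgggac
Neurod2: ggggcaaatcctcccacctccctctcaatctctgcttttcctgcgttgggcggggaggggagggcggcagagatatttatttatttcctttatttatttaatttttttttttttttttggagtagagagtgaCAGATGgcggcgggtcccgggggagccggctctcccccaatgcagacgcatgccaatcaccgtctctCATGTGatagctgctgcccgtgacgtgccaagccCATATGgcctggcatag
Neurod6: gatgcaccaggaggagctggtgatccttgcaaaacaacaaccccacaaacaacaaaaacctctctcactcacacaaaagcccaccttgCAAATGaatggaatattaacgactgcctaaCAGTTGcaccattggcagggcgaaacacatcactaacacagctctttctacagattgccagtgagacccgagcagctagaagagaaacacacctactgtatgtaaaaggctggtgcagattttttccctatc
The CANNTG letters read the same on both strands. The Neurod2 stretch held 3 such sites, the Neurod6 stretch 2 and the Neurod1 stretch 1, against a median of 1 over the 32851 mouse promoters of the same length, of which 66.2% held at least 1 site. One form, CAGATG, was searched on both strands and is counted among the CANNTG sites. It occurred once in the Neurod2 stretch and in neither of the other two, and 14.4% of all promoters held it. The 7 symbols matched 9 promoters; of the other 6, the first Etv1 promoter, Eomes and the first Pax6 promoter held no CANNTG, Fat2 and the second Pax6 promoter held 1 each, and the second Etv1 promoter held 3, with 1 CAGATG among them. A match of letters is a description and not evidence that a factor binds.

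Of the whole series, 8 of 176 samples were used. Summed FPKM ran from 289350 to 426851 per library and relative depth, taken from the authors' confidence limits, from 1 to 1.51, with the highest sums in the prefrontal NeuN- libraries. Replicates correlated across features at Spearman 0.972 to 0.977 and libraries of different groups at 0.680 to 0.808. Rbfox3, the gene behind the sort, had 123 and 119 FPKM in cerebellar NeuN+ nuclei, against 33.3 and 34.5 in cerebellar NeuN- nuclei. In prefrontal cortex it had 16.2 and 15.7 FPKM in NeuN+ nuclei, against 14.2 and 12.3 in NeuN- nuclei, a log2 difference of 0.47 (adjusted p = 5.5e-04). Rbfox3 RNA was thus present in both gates of both regions. The 4 granule cell markers that are not among the 7 genes (Gabra6, Cbln3, Grin2c and Grm4) summed to 608 and 619 FPKM in cerebellar NeuN+ nuclei and to 134 and 130 in cerebellar NeuN- nuclei. They summed to 3.49 and 4.17 FPKM in prefrontal NeuN+ nuclei and to 30.1 and 28.8 in prefrontal NeuN- nuclei, where Grin2c made up most of the sum. In sorted bulk nuclei, fewer cells of a type and less RNA per cell cannot be told apart. Features were tested with limma on log2(scaled FPKM + 1), with p-values adjusted over all 14376 features in each of 5 comparisons and a threshold of 0.05; all log2 differences below are on that scale, which understates the change of low genes.

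**Figure D1:**
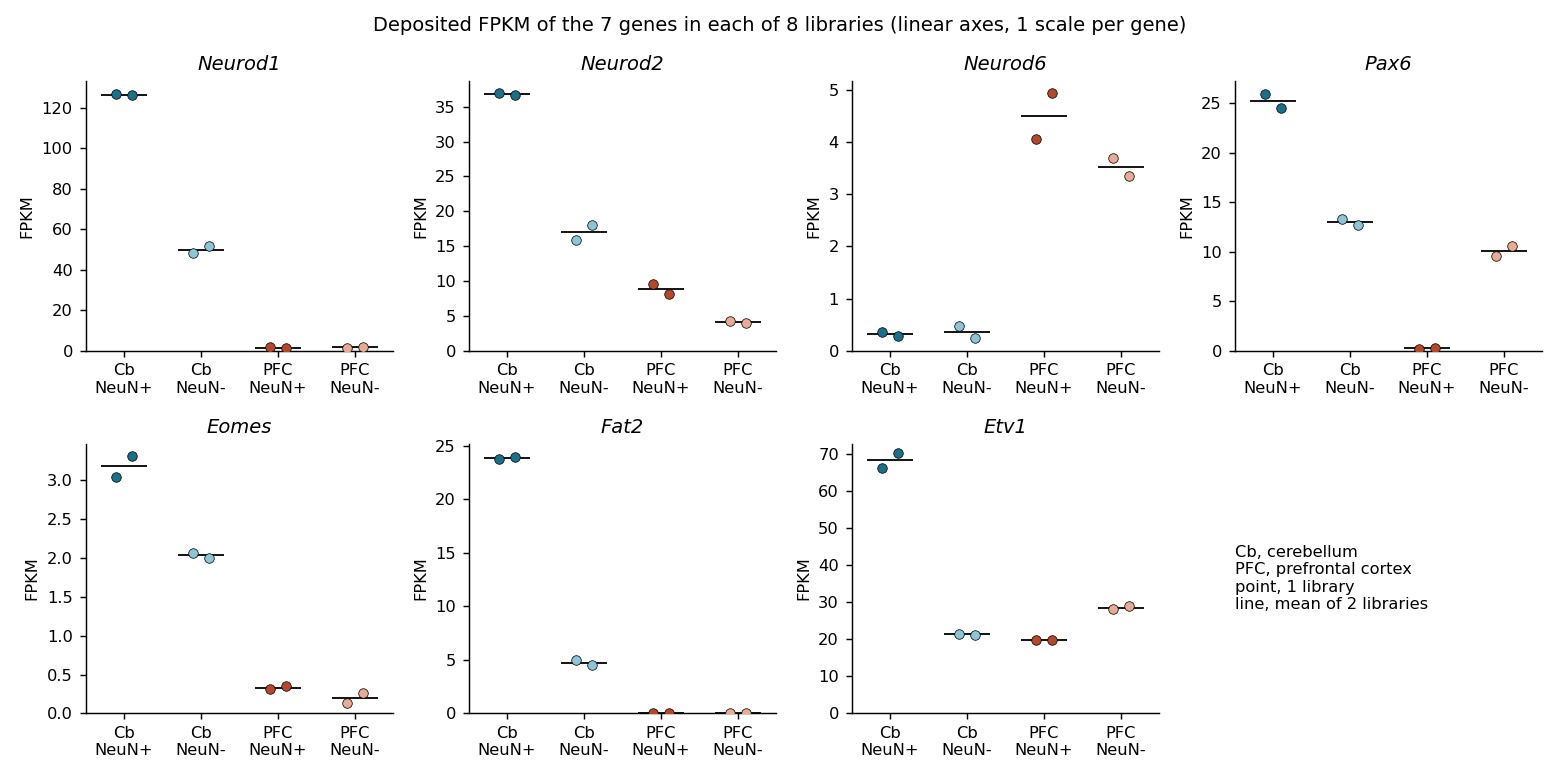
Deposited FPKM (y axis, linear, 1 scale per gene) of the 7 genes in the 4 groups of nuclei; each point is 1 library and each line the mean of 2 libraries. All 7 genes except Neurod6 were highest in cerebellar NeuN+ nuclei, and Pax6 was near 0 in prefrontal NeuN+ nuclei but not in prefrontal NeuN- nuclei.

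Neurod1 (mm9 chromosome 2, 79292798 to 79296793) was the highest of the 7 genes in the cerebellum and close to the floor in the cortex. It had 127 and 126 FPKM in cerebellar NeuN+ nuclei, 48.2 and 51.5 in cerebellar NeuN- nuclei, 1.67 and 1.47 in prefrontal NeuN+ nuclei and 1.48 and 1.84 in prefrontal NeuN- nuclei. The cerebellar groups did not overlap each other or the cortex, while both prefrontal groups did overlap. In cerebellar NeuN+ nuclei Neurod1 lay at the 97.4th percentile of the kept features, against the 26.2nd percentile in prefrontal NeuN+ nuclei. NeuN+ nuclei exceeded NeuN- nuclei of the cerebellum by 1.33 ± 0.0814 on the log2 scale (SE, adjusted p = 1.2e-05), a 2.51-fold difference of scaled FPKM + 1. Cerebellum exceeded prefrontal cortex by 5.65 in NeuN+ nuclei (adjusted p = 5.3e-08) and by 4.41 in NeuN- nuclei (adjusted p = 1.8e-07). The prefrontal gate difference was 0.10, with a 95% interval of -0.10 to 0.29 (adjusted p = 0.314). That last value was past the threshold under other scalings of the libraries, at 0.23 with summed FPKM made equal (adjusted p = 0.0399) and 0.24 with quantile normalization (adjusted p = 0.0394), and was -0.05 without scaling (adjusted p = 0.616). The gate difference in cerebellum was larger than that in cortex by 1.23 ± 0.115 (SE, adjusted p = 1.3e-04).

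Neurod2 (mm9 chromosome 11, 98186731 to 98190959) had the same order of gates in both regions. It had 37.0 and 36.6 FPKM in cerebellar NeuN+ nuclei and 15.9 and 18.1 in cerebellar NeuN- nuclei. In the cortex it had 9.50 and 8.19 FPKM in NeuN+ nuclei and 4.24 and 3.97 in NeuN- nuclei. The 4 groups did not overlap, and each step in the order was larger than the spread between the libraries of a group. NeuN+ nuclei exceeded NeuN- nuclei by 1.08 ± 0.0857 in cerebellum (SE, adjusted p = 4.1e-05) and by 1.14 ± 0.0857 in prefrontal cortex (SE, adjusted p = 3.4e-05). The difference between these gate changes was -0.06, with a 95% interval of -0.35 to 0.23 (adjusted p = 0.668); its sign was positive without scaling (0.13) and with a pseudocount of 5 (0.22). Cerebellum exceeded cortex by 1.94 in NeuN+ nuclei (adjusted p = 2.3e-06) and by 2.00 in NeuN- nuclei (adjusted p = 2.3e-06), a 3.83-fold and a 4.00-fold difference of scaled FPKM + 1.

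Neurod6 (mm9 chromosome 6, 55627813 to 55631257) ran the other way between regions. It had 0.367 and 0.273 FPKM in cerebellar NeuN+ nuclei, 0.465 and 0.245 in cerebellar NeuN- nuclei, 4.05 and 4.93 in prefrontal NeuN+ nuclei and 3.69 and 3.35 in prefrontal NeuN- nuclei. Cortical libraries all lay above cerebellar libraries; in the cerebellum the gates overlapped. The authors' confidence limits for the 4 cerebellar libraries spanned 0.0703 to 0.723 FPKM, so the cerebellar levels are imprecise. Cerebellum was lower than cortex by a log2 difference of -2.09 in NeuN+ nuclei (adjusted p = 6.6e-06) and -1.60 in NeuN- nuclei (adjusted p = 2.2e-05). Since Neurod6 passed the filter through its cortical libraries alone, it had to differ between regions in at least 1 gate. Prefrontal NeuN+ nuclei exceeded prefrontal NeuN- nuclei by 0.46 ± 0.118 (SE, adjusted p = 0.0109). This gate difference did not pass without prefrontal NeuN+ replicate 2 (0.35, adjusted p = 0.0589), without prefrontal NeuN- replicate 2 (0.42, adjusted p = 0.0623), without scaling (0.28, adjusted p = 0.0713) or with a pseudocount of 0.1 (0.57, adjusted p = 0.0957). The cerebellar gate difference was -0.03 (adjusted p = 0.826), and 0.47 after quantile normalization (adjusted p = 0.00554).

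The make-up of NeuroD transcripts differed between the regions. The 4 NeuroD genes, the fourth being Neurod4, summed to 164 and 163 FPKM in cerebellar NeuN+ nuclei and to 64.5 and 69.8 in cerebellar NeuN- nuclei. The sum was 15.4 and 14.8 FPKM in prefrontal NeuN+ nuclei and 10.1 and 9.85 in prefrontal NeuN- nuclei. Neurod1 made up 77.2% and 77.4% of the sum in cerebellar NeuN+ nuclei and 74.7% and 73.8% in cerebellar NeuN- nuclei, against 10.9% and 9.97% in prefrontal NeuN+ nuclei and 14.7% and 18.7% in prefrontal NeuN- nuclei. In the cortex the largest share was that of Neurod2, at 61.8% and 55.5% in NeuN+ nuclei and 42.1% and 40.3% in NeuN- nuclei. Neurod6 made up 0.223% and 0.168% of the sum in cerebellar NeuN+ nuclei, against 26.3% and 33.4% in prefrontal NeuN+ nuclei. Neurod4 was listed at 0 in all 4 cerebellar libraries and made up 6.60% and 7.07% in prefrontal NeuN- nuclei, from levels below 1 FPKM. The shares are parts of the same sum, so the large Neurod1 share in cerebellum lowers the others there. Neurod2 made up 22.5% and 22.5% in cerebellar NeuN+ nuclei, below its cortical share, though its level was higher in cerebellum.

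**Figure D2:**
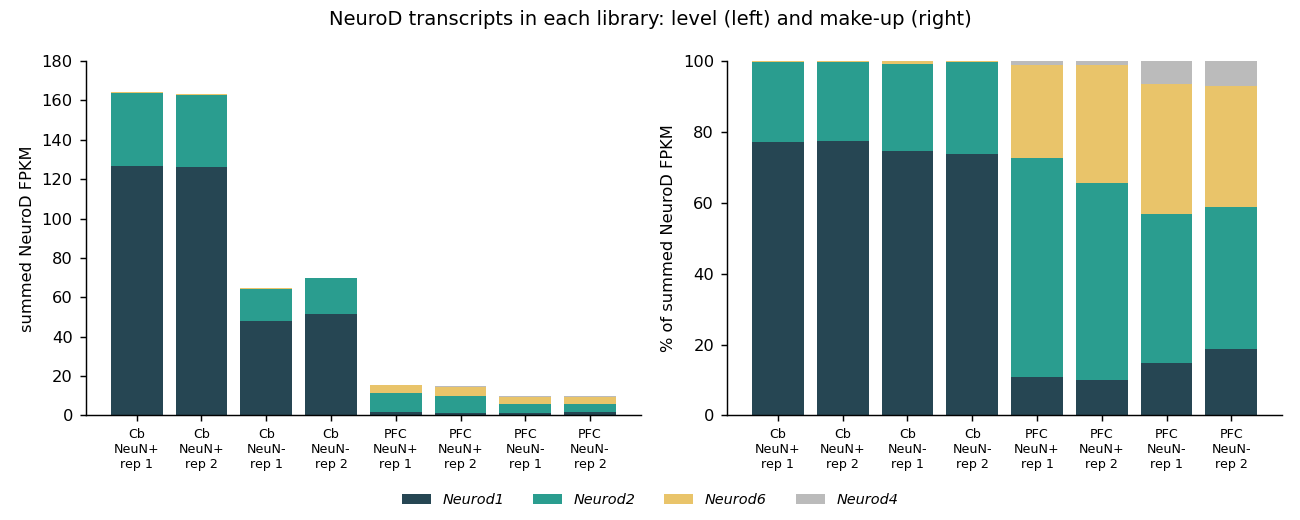
Summed FPKM of the NeuroD genes in each library (left, linear axis from 0) and the percent of that sum from each gene (right); bars are single libraries. Neurod1 fills more than 73% of each cerebellar bar, and Neurod2 with Neurod6 fills most of each prefrontal bar.

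Pax6 (mm9 chromosome 2, 105509053 to 105538567) was high in both cerebellar gates and in the prefrontal NeuN- gate, and near 0 in the prefrontal NeuN+ gate. It had 25.9 and 24.5 FPKM in cerebellar NeuN+ nuclei, 13.3 and 12.7 in cerebellar NeuN- nuclei, 0.193 and 0.286 in prefrontal NeuN+ nuclei and 9.61 and 10.6 in prefrontal NeuN- nuclei. No groups overlapped. The gate difference had opposite signs in the regions: 0.91 ± 0.0802 in cerebellum (SE, adjusted p = 6.9e-05) and -2.99 ± 0.0802 in prefrontal cortex (SE, adjusted p = 4.9e-07). The difference between them, 3.90 ± 0.113 (SE, adjusted p = 2.4e-06), was the largest of the 7 genes. Cerebellum exceeded cortex by 4.44 in NeuN+ nuclei (adjusted p = 9.6e-08) and by 0.54 in NeuN- nuclei (adjusted p = 7.2e-04).

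Markers of several glial types moved with Pax6 between the cortical gates. The 7 astrocyte markers summed to 42.3 and 40.9 FPKM in prefrontal NeuN+ nuclei, against 638 and 670 in prefrontal NeuN- nuclei, and all 7 of 7 were lower in NeuN+ nuclei. The 7 oligodendrocyte markers summed to 85.7 and 80.1 FPKM in prefrontal NeuN+ nuclei, against 2108 and 2051 in prefrontal NeuN- nuclei. The 6 microglia markers summed to 8.77 and 11.6 FPKM in prefrontal NeuN+ nuclei, against 346 and 342 in prefrontal NeuN- nuclei. Of these, 7 of 7 and 5 of 5 tested were lower in NeuN+ nuclei, where 37.6% of all features were, and none was at 0 in either gate. The 7 general neuron markers summed to 1329 and 1320 FPKM in prefrontal NeuN+ nuclei, against 1992 and 2069 in prefrontal NeuN- nuclei. Most of each sum was Snap25, at 980 and 976 FPKM in NeuN+ nuclei, against 1579 and 1664 in NeuN- nuclei. These sums are of deposited FPKM, which over all features were also highest in prefrontal NeuN- libraries. By limma on scaled FPKM, 2 of 7 were higher in NeuN+ nuclei and 2 lower, against 35.0% and 37.6% of all features. Their median log2 difference was -0.01, so they did not move in 1 direction. In the cerebellum the astrocyte markers summed to 39.5 and 37.0 FPKM in NeuN+ nuclei, against 467 and 470 in NeuN- nuclei, and there Pax6 was higher in NeuN+ nuclei. The 5 Bergmann glia markers summed to 270 and 271 FPKM in cerebellar NeuN+ nuclei, against 1282 and 1271 in cerebellar NeuN- nuclei. No astrocyte or Bergmann glia marker was at 0 in any group. The part of glial RNA in the Pax6 levels was not tested.

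**Figure D3:**
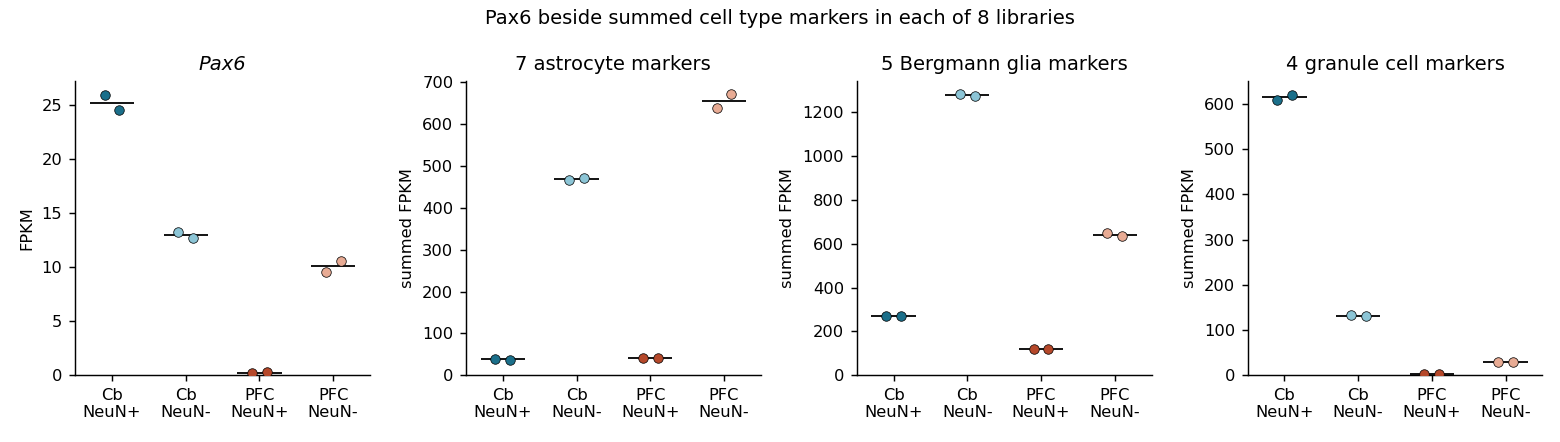
FPKM of Pax6 beside the summed FPKM of 7 astrocyte, 5 Bergmann glia and 4 granule cell markers (y axes, linear from 0) in the 4 groups; each point is 1 library and each line the mean of 2. Pax6 was high in cerebellar NeuN+ nuclei, where granule markers were high, and in prefrontal NeuN- nuclei, where astrocyte markers were high.

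Elp4 and Pax6os1 overlap Pax6 in the tables' coordinates, and no source used here says whether the counting used strand, so part of the Pax6 value may belong to either. Elp4, an Elongator subunit gene, had 1.98 and 2.09 FPKM in cerebellar NeuN+ nuclei and 1.31 and 1.12 in cerebellar NeuN- nuclei. It had 1.34 and 1.37 FPKM in prefrontal NeuN+ nuclei and 3.27 and 3.32 in prefrontal NeuN- nuclei. Its spread across groups was far smaller than that of Pax6, but its gates lay in the same order in each region. Like Pax6, it was higher in NeuN+ nuclei of cerebellum and lower in NeuN+ nuclei of prefrontal cortex. The part of Elp4 in the Pax6 value was not tested. Pax6os1, an antisense transcript, was listed at 0 in all libraries other than cerebellar NeuN- (0.357 and 0.836 FPKM), and Paupar, 7.55 kb from Pax6, stayed below 1 FPKM throughout.

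Eomes (mm9 chromosome 9, 118387307 to 118395250) was low everywhere but higher in the cerebellum. It had 3.05 and 3.31 FPKM in cerebellar NeuN+ nuclei, 2.07 and 2.00 in cerebellar NeuN- nuclei, 0.311 and 0.353 in prefrontal NeuN+ nuclei and 0.132 and 0.264 in prefrontal NeuN- nuclei. No groups overlapped, and the 2 prefrontal groups lay closest. NeuN+ nuclei exceeded NeuN- nuclei of the cerebellum by 0.47 ± 0.0769 (SE, adjusted p = 0.00145). The prefrontal difference was 0.20 ± 0.0769 and did not pass (SE, adjusted p = 0.054). It did pass under 5 of the alternatives, among them without prefrontal NeuN- replicate 2 (0.27, adjusted p = 0.0243). The gate change in cerebellum minus that in cortex was 0.27 (adjusted p = 0.0627), and it passed without prefrontal NeuN- replicate 1 (0.34, adjusted p = 0.0266). Cerebellum exceeded cortex by 1.67 in NeuN+ nuclei (adjusted p = 2.7e-06) and by 1.40 in NeuN- nuclei (adjusted p = 6.0e-06). Eomes passed the filter through its cerebellar libraries alone and so had to differ between regions in at least 1 gate.

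Fat2 (mm9 chromosome 11, 55064112 to 55125759) was the gene most confined to the cerebellum by level. It had 23.8 and 24.0 FPKM in cerebellar NeuN+ nuclei and 4.97 and 4.49 in cerebellar NeuN- nuclei. It was listed at 0 in both prefrontal NeuN+ libraries and at 0.00684 and 0.0338 FPKM in prefrontal NeuN- nuclei. The cerebellar gates were far apart beside their spread, at 2.13 ± 0.0722 (SE, adjusted p = 1.2e-06), and this was the largest cerebellar gate difference of the 7 genes. Cerebellum exceeded cortex in NeuN+ nuclei (adjusted p = 5.6e-08) and in NeuN- nuclei (adjusted p = 5.6e-07); no fold is given against levels at or next to 0. Like Eomes, Fat2 passed the filter through the cerebellum alone. The prefrontal gate difference was -0.03 (adjusted p = 0.766).

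Etv1 (mm9 chromosome 12, 39506845 to 39594802) was well above the floor in every group. It had 66.3 and 70.3 FPKM in cerebellar NeuN+ nuclei, 21.5 and 21.1 in cerebellar NeuN- nuclei, 19.8 and 19.9 in prefrontal NeuN+ nuclei and 28.1 and 29.0 in prefrontal NeuN- nuclei. Cerebellar NeuN+ nuclei stood apart at the top, and the other 3 groups lay close together without overlap. NeuN+ nuclei exceeded NeuN- nuclei by 1.64 ± 0.0472 in cerebellum (SE, adjusted p = 7.3e-07). In prefrontal cortex the difference was -0.28 ± 0.0472 (SE, adjusted p = 0.00181), and it was -0.07 and no longer past the threshold with summed FPKM made equal (adjusted p = 0.276). The gate changes differed between the regions by 1.91 ± 0.0668 (SE, adjusted p = 4.1e-06). Cerebellum exceeded cortex by 1.72 in NeuN+ nuclei (adjusted p = 3.5e-07). In NeuN- nuclei the difference was -0.19 (adjusted p = 0.00887), but it turned to 0.11 with summed FPKM made equal (adjusted p = 0.0941) and to 0.03 with quantile normalization (adjusted p = 0.512), so its direction depends on the scaling.

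**Figure D4:**
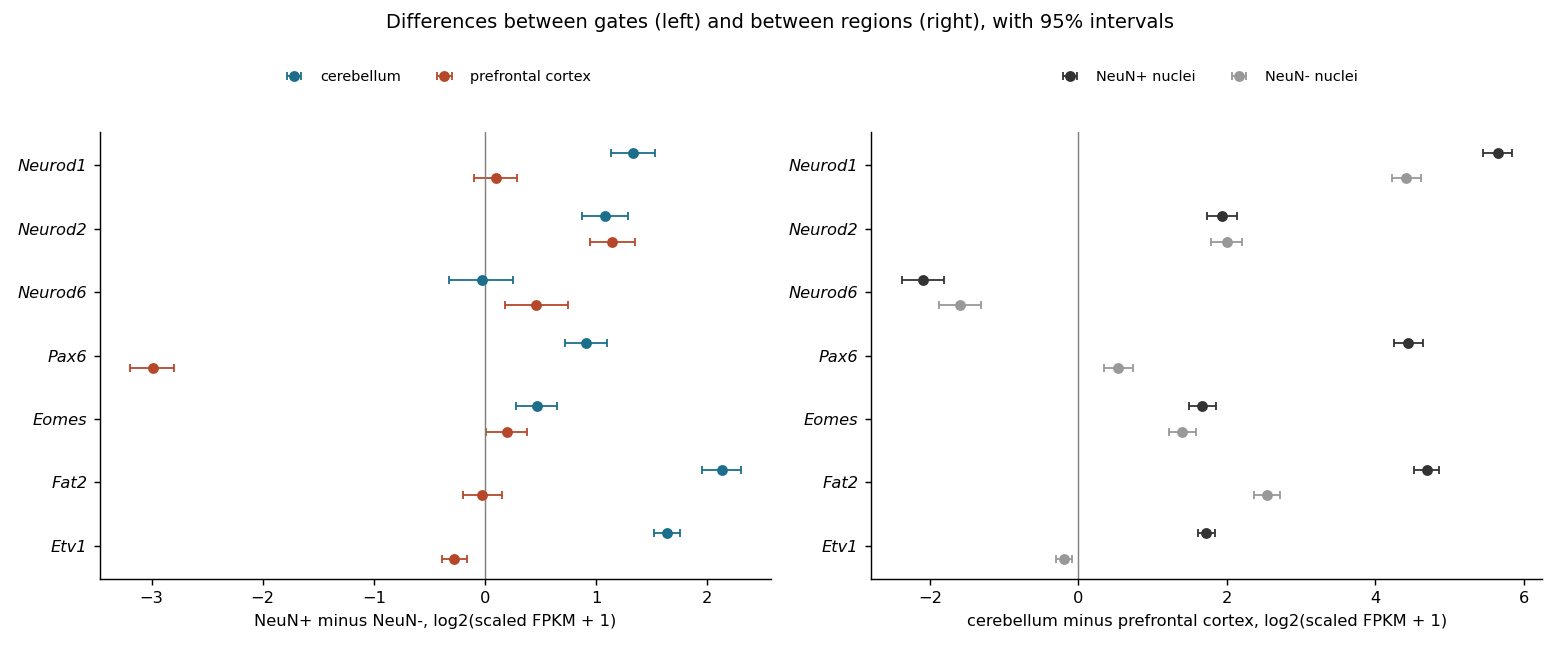
Log2 differences of scaled FPKM + 1 with 95% intervals from limma; left, NeuN+ minus NeuN- in each region, and right, cerebellum minus prefrontal cortex in each gate. The gate difference of Pax6 is 0.91 in cerebellum and -2.99 in prefrontal cortex, and Neurod6 alone is below 0 for both gates on the right; sizes for Fat2 depend on the pseudocount, since it was listed at 0 in prefrontal NeuN+ nuclei.

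Counted together, 6 of the 7 genes were higher in cerebellar NeuN+ than in cerebellar NeuN- nuclei and none was lower, where 32.4% of all features were called higher and 39.2% lower. In prefrontal cortex 2 of 7 were higher in NeuN+ nuclei (Neurod2, Neurod6) and 2 lower (Pax6, Etv1), against 35.0% and 37.6% of all features. In NeuN+ nuclei, cerebellum was higher for 6 and lower for 1 (Neurod6), against 36.5% and 40.7% of all features. In NeuN- nuclei, cerebellum was higher for 5 and lower for 2 (Neurod6, Etv1), against 40.5% and 39.0%. The gate change was larger in cerebellum for 4 (Neurod1, Pax6, Fat2, Etv1) and smaller for 1 (Neurod6), against 33.1% and 37.0%. Rbfox3 itself had a larger gate change in cerebellum, by 1.34 (limma, adjusted p = 3.3e-05). The Neurod6 call (-0.50 ± 0.167, SE, adjusted p = 0.0338) was lost in 6 of the 8 repeats that left out 1 library, with values of -0.54 to -0.37. These counts are a description, since 3 of the 7 passed the filter through 1 region only. With most features called in every comparison, a call by itself says little about a gene, and the sizes and levels above carry the description. The balance of calls over all features moved with the scaling: the share called higher among those called was 48.2% in the prefrontal gate comparison, against 36.0% without scaling and 59.9% with equal sums, and the median of all features was -0.01, -0.19 and 0.14. In the cerebellar gate comparison the share was 45.2%, against 55.8% with quantile normalization. Between the regions in NeuN- nuclei it was 51.0%, against 42.6% without scaling and 62.1% with equal sums, with medians of 0.02, -0.13 and 0.26. For the difference between the gate changes it was 47.2%, against 57.6% without scaling and 37.7% with equal sums, with medians of -0.06, 0.13 and -0.23.

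The level kept in the cerebellar NeuN- gate varied among the genes. As a percent of the NeuN+ level it was 19.8% for Fat2, 31.2% for Etv1, 39.3% for Neurod1, 46% for Neurod2, 51.5% for Pax6 and 63.9% for Eomes. Rbfox3 stood at 27.9%. Of the granule cell receptor and synaptic genes, Grin2c (an NMDA receptor subunit) and Grm4 (a metabotropic glutamate receptor) stood at 11.0% each, Gabra6 (a GABA-A receptor subunit) at 19.2% and Cbln3 (a granule cell cerebellin) at 31.6%. These 4 markers were named after their values were seen, and other granule genes kept as much. Of the 25 tested genes of the granule lineage list, 17 lay above Neurod1, 14 above each of Neurod2, Pax6 and Eomes, 19 above Etv1 and 20 above Fat2; Cbln1 stood at 39.8%, En2 at 43.2% and Zic1 at 67.6%. Neurod6, near the floor in the cerebellum, is left out, and the differences between these percentages were not tested.

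Other genes of the granule lineage were, like Neurod1, Neurod2 and Pax6, mostly higher in cerebellum. Of a list of 28 granule lineage and granule cell genes, 25 could be tested. Of these, 11 passed the filter through cerebellar libraries alone and 1 (Meis2) through prefrontal libraries alone. They had to differ between the regions in at least 1 gate, so the regional counts are a description. The difference did not have to hold in each gate, since Atoh1 was at or next to 0 in NeuN- nuclei of both regions. In NeuN+ nuclei 22 were higher in cerebellum and 2 lower (Meis2, Mycn), where 36.5% and 40.7% of all features were called; the median log2 difference was 1.81, beside -0.03 over all features. In NeuN- nuclei 20 were higher in cerebellum and 3 lower, against 40.5% and 39.0% of all features, with a median of 1.13, beside 0.02. Between the cerebellar gates 17 were higher in NeuN+ nuclei and 6 lower, against 32.4% and 39.2%, with a median of 0.58, beside -0.04. In the prefrontal gates 7 were higher and 13 lower, against 35.0% and 37.6%, with a median of -0.17, beside -0.01. The gate change was larger in cerebellum for 19 and smaller for 4, against 33.1% and 37.0%.

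Among those with the largest differences, Gabra6 had 241 and 248 FPKM in cerebellar NeuN+ nuclei, was listed at 0 in prefrontal NeuN+ nuclei, and had 47.0 and 47.1 in cerebellar NeuN- nuclei. Cbln1, a secreted synapse organiser of granule cells, had 163 and 159 FPKM in cerebellar NeuN+ nuclei, against 0.311 and 0.236 in prefrontal NeuN+ nuclei. Grin2c resembled Pax6 in that its gate difference was 3.10 in cerebellum (adjusted p = 1.4e-07) and -4.15 in prefrontal cortex (adjusted p = 4.8e-08). It had 131 and 132 FPKM in cerebellar NeuN+ nuclei and 14.7 and 14.2 in cerebellar NeuN- nuclei; in the cortex it had 0.236 and 0.260 in NeuN+ nuclei and 24.9 and 23.3 in NeuN- nuclei. Zic4, a zinc finger factor of cerebellar progenitors, went against the list, with 12.2 and 12.6 FPKM in cerebellar NeuN+ nuclei, against 25.5 and 25.6 in cerebellar NeuN- nuclei. Atoh1, the bHLH factor that founds the granule lineage, had 1.86 and 1.96 FPKM in cerebellar NeuN+ nuclei and was listed at 0 in both cerebellar NeuN- and both prefrontal NeuN+ libraries.

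**Figure D5:**
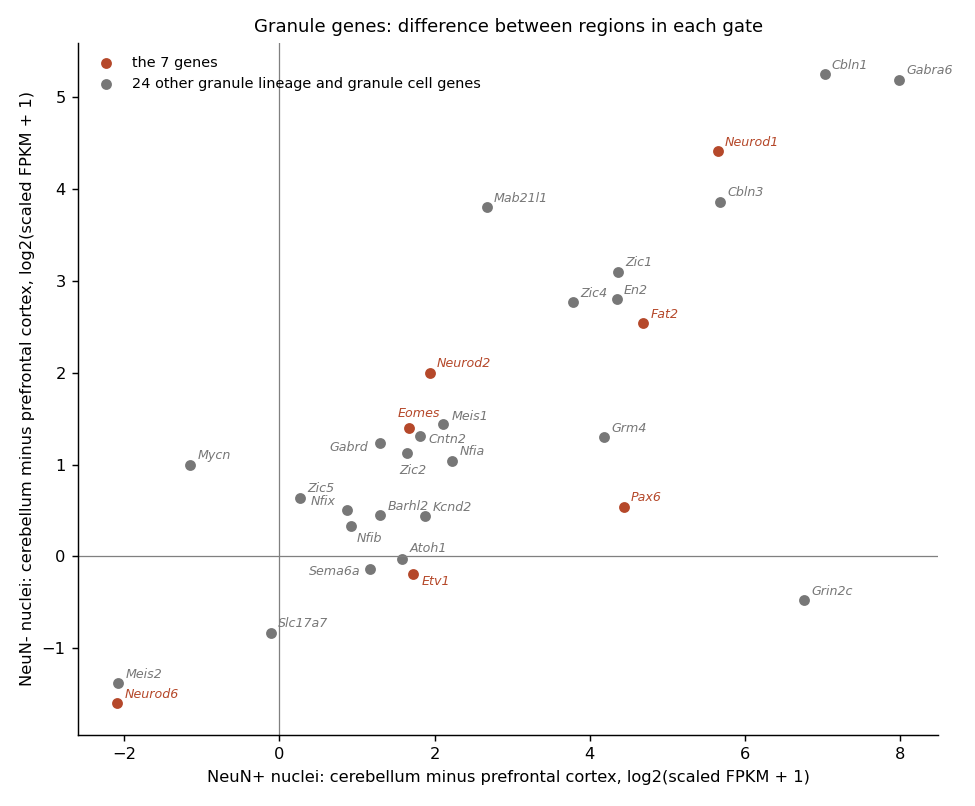
Cerebellum minus prefrontal cortex, as log2 differences of scaled FPKM + 1, in NeuN+ nuclei (x axis) and in NeuN- nuclei (y axis) for the 7 genes and 24 granule lineage and granule cell genes; the axes share no library. Pax6 (4.44 and 0.54) and Grin2c (6.77 and -0.48) lie far to the right at low values of y; sizes for Gabra6, Fat2, Zic2 and Atoh1 depend on the pseudocount, since a group was listed at 0.

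The dimer partners of the NeuroD factors and their inhibitors were tested as a list of 12 genes, 11 of them above the filter. In prefrontal cortex 0 were higher in NeuN+ nuclei and 9 lower, where 35.0% and 37.6% of all features were called, with a median log2 difference of -0.90, beside -0.01 over all features. In cerebellum 1 was higher and 7 lower, against 32.4% and 39.2%, with a median of -0.35, beside -0.04. Id1, Id3 and Id4, which encode inhibitors, had the largest gate differences of the list in both regions. Id3 had 1.19 and 2.88 FPKM in cerebellar NeuN+ nuclei, against 48.9 and 48.8 in cerebellar NeuN- nuclei, a difference of -4.12 (adjusted p = 1.3e-05). Id4 had 3.22 and 2.75 FPKM in cerebellar NeuN+ nuclei, against 53.3 and 53.5 in cerebellar NeuN- nuclei, a difference of -3.78 (adjusted p = 2.6e-06). In prefrontal cortex the difference was -5.05 for Id3 (adjusted p = 5.6e-06) and -2.90 for Id4 (adjusted p = 7.8e-06). Id1 differed by -1.79 in cerebellum (adjusted p = 5.2e-05) and by -3.01 in prefrontal cortex (adjusted p = 5.3e-06). These 3 genes were thus lower in NeuN+ nuclei of both regions, where Neurod2 was higher. All tested markers of astrocytes, oligodendrocytes and oligodendrocyte precursors were lower there too, as were most or all of Bergmann glia and microglia. The part of glial RNA was not tested. Id2, the most abundant Id gene, did not share that pattern in cerebellum, with 96.5 and 104 FPKM in NeuN+ nuclei, against 94.3 and 100.4 in NeuN- nuclei, a difference of 0.04 (adjusted p = 0.487). In prefrontal cortex Id2 had 151 and 148 FPKM in NeuN+ nuclei, against 329.5 and 332 in NeuN- nuclei, a difference of -0.90 (adjusted p = 9.8e-06). The E-protein gene Tcf4 was nearly level across the groups, at 42.0 and 42.5 FPKM in cerebellar NeuN+ nuclei, 41.1 and 41.9 in cerebellar NeuN- nuclei, 37.7 and 37.7 in prefrontal NeuN+ nuclei and 42.1 and 41.9 in prefrontal NeuN- nuclei. Another E-protein gene, Tcf12, was higher in cerebellar than in prefrontal NeuN+ nuclei by 0.96 (adjusted p = 3.7e-05). Between the regions the list moved in both directions. In NeuN+ nuclei 5 genes were higher and 3 lower in cerebellum, near the 36.5% and 40.7% of all features, with a median of 0.07 beside -0.03. In NeuN- nuclei 5 were higher and 4 lower, near the 40.5% and 39.0% of all features, with a median of 0.19 beside 0.02. Single genes there differed by -1.82 (Hey1, a Notch target and repressor), -1.53 (Id2) and -1.11 (Id3).

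Of 15 other neural bHLH genes of the same class, 9 were below the filter, among them Neurog1, Nhlh1 and Bhlhe23, which were listed at 0 in all 4 groups. Of the 6 tested, 6 were higher in cerebellar than in prefrontal NeuN+ nuclei, where 36.5% of all features were, with a median log2 difference of 1.16 beside -0.03; Atoh1 among them passed the filter through cerebellar NeuN+ libraries alone. In NeuN- nuclei 3 were higher and 2 lower, against 40.5% and 39.0% of all features. Between the cerebellar gates 2 were higher in NeuN+ nuclei and 3 lower, against 32.4% and 39.2%, and between the prefrontal gates 2 were higher and 2 lower, against 35.0% and 37.6%; these counts lie near the shares of all features. The lower calls in prefrontal NeuN+ nuclei were those of the oligodendrocyte lineage factors Olig1 and Olig2, and in cerebellum Olig1 (-1.77) was followed by Bhlhe22 (-1.41) and Olig2 (-1.05). Olig1 had 9.26 and 8.32 FPKM in cerebellar NeuN+ nuclei, against 31.3 and 33.1 in cerebellar NeuN- nuclei, and in prefrontal cortex it differed by -4.04 between the gates (adjusted p = 8.8e-08). Nhlh2, a bHLH factor of developing neurons, had 4.82 and 4.65 FPKM in cerebellar NeuN+ nuclei, against 1.39 and 1.35 in prefrontal NeuN+ nuclei. Atoh7 was higher in prefrontal NeuN+ nuclei, at 36.2 and 27.4 FPKM, against 5.08 and 3.86 in NeuN- nuclei, a difference of 2.78 (adjusted p = 1.4e-05). In cerebellum it had 55.4 and 66.3 FPKM in NeuN+ nuclei, against 27.7 and 22.9 in NeuN- nuclei.

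Genes of unipolar brush cells were set beside Eomes. Of 8 such genes 7 were tested, of which Otx2 and Calb2 passed the filter through cerebellar libraries alone. In cerebellar against prefrontal NeuN+ nuclei 5 were higher and 2 lower, against 36.5% and 40.7% of all features, with a median log2 difference of 1.76 beside -0.03; in NeuN- nuclei 6 were higher and 1 lower, against 40.5% and 39.0%, with a median of 1.62 beside 0.02. Between the cerebellar gates 4 were higher in NeuN+ nuclei and 1 lower (Plcb1), against 32.4% and 39.2%, with a median of 0.53 beside -0.04. In prefrontal cortex 4 were higher and 0 lower, against 35.0% and 37.6%, with a median of 0.36 beside -0.01. Calb2, the calretinin gene, had 4.78 and 5.03 FPKM in cerebellar NeuN+ nuclei, 2.1 and 2.66 in cerebellar NeuN- nuclei, 0.120 and 0.117 in prefrontal NeuN+ nuclei and 0 and 0.0868 in prefrontal NeuN- nuclei. This order of groups was that of Eomes. Otx2, a homeodomain factor, had 6.25 and 7.11 FPKM in cerebellar NeuN+ nuclei and 1.42 and 1.19 in cerebellar NeuN- nuclei, and was listed at 0 in prefrontal NeuN+ nuclei. Lmx1a, another marker of these cells, stayed below 1 FPKM on average in every group and was not tested.

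Cortical glutamatergic neuron genes were, like Neurod6, mostly lower in cerebellum. Of 19 listed, 17 were tested, of which 9 passed the filter through prefrontal libraries alone and 1 (Cux1) through cerebellar libraries alone. These had to differ between the regions in at least 1 gate. In NeuN+ nuclei 3 were higher and 12 lower in cerebellum, against 36.5% and 40.7% of all features, with a median log2 difference of -1.91 beside -0.03; in NeuN- nuclei 3 were higher and 14 lower, against 40.5% and 39.0%, with a median of -1.14 beside 0.02. Between the prefrontal gates 8 were higher in NeuN+ nuclei and 0 lower, against 35.0% and 37.6%, with a median of 0.19 beside -0.01. Between the cerebellar gates 5 were higher and 4 lower, against 32.4% and 39.2%, with a median of 0.00 beside -0.04. Tbr1, a T-box factor of cortical projection neurons and a relative of Eomes, was listed at 0 in all 4 cerebellar libraries. It had 6.33 and 6.70 FPKM in prefrontal NeuN+ nuclei, against 5.57 and 4.89 in prefrontal NeuN- nuclei, a difference of 0.47 (adjusted p = 0.00108). Mef2c, a MADS-box factor, had 2.02 and 2.28 FPKM in cerebellar NeuN+ nuclei, against 91.8 and 92.1 in prefrontal NeuN+ nuclei. Camk2a, a kinase of excitatory synapses, had 21.5 and 22.1 FPKM in prefrontal NeuN+ nuclei, against 3.54 and 3.18 in prefrontal NeuN- nuclei, so that the cortical gates were further apart for Camk2a than for Neurod6 or Tbr1.

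Relatives of Fat2, Etv1, Pax6 and Eomes mostly had other patterns. Fat1 had 5.44 and 5.36 FPKM in cerebellar NeuN+ nuclei and 3.16 and 3.31 in cerebellar NeuN- nuclei, against 0.338 and 0.254 in prefrontal NeuN+ nuclei and 0.870 and 0.948 in prefrontal NeuN- nuclei, the order of Fat2 but with a level in the cortex where Fat2 was at or next to 0. Fat3 had 0.150 and 0.127 FPKM in cerebellar NeuN+ nuclei, against 1.72 and 1.47 in prefrontal NeuN+ nuclei, the opposite order between regions in NeuN+ nuclei. Fat4 and Dchs1 were below the filter. Etv5, like Etv1 a PEA3 factor, had 1.36 and 1.09 FPKM in cerebellar NeuN+ nuclei and 5.30 and 5.13 in cerebellar NeuN- nuclei, a difference of -1.50 (adjusted p = 6.7e-06) where Etv1 had 1.64; Etv4 was below the filter. Of 10 other Pax and T-box genes 2 passed the filter, Tbr1 and Pax3. Pax3 had 0.471 and 0.529 FPKM in cerebellar NeuN+ nuclei, against 6.85 and 7.38 in cerebellar NeuN- nuclei, a log2 difference of -2.46 where Pax6 had 0.91. It was below 1 FPKM in both prefrontal groups, so it passed the filter through cerebellar NeuN- libraries alone and had to differ, and no test of it is given.

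Neighbours within 50 kb in the tables' coordinates are given beside each gene. Cerkl, 23.7 kb from Neurod1 and related to ceramide kinase, had 8.55 and 9.02 FPKM in cerebellar NeuN+ nuclei, 0.621 and 0.441 in cerebellar NeuN- nuclei, 0.568 and 0.691 in prefrontal NeuN+ nuclei and 0.937 and 0.857 in prefrontal NeuN- nuclei. Cerkl was thus high in cerebellar NeuN+ nuclei alone, where Neurod1 was high in both cerebellar gates. Beside Neurod2, Stard3, a cholesterol-binding membrane protein gene, averaged 9.61 scaled FPKM in cerebellar NeuN+, 22.5 in cerebellar NeuN-, 27.7 in prefrontal NeuN+ and 41.7 in prefrontal NeuN- nuclei. This order of groups was the reverse of that of Neurod2. Ppp1r1b, the DARPP-32 gene, averaged 4.69, 8.07, 7.15 and 5.48 scaled FPKM in the same 4 groups, and 1700003D09Rik stayed below 1. Golga4, a Golgi protein gene 20.2 kb from Eomes, averaged 37.6, 18.5, 19.7 and 8.18 scaled FPKM, like Eomes highest in cerebellar NeuN+ and lowest in prefrontal NeuN- nuclei, and 4933432G23Rik, also near Eomes, was listed at 0 throughout. Slc36a1, an amino acid transporter gene 14.3 kb from Fat2, averaged 3.14, 4.48, 1.88 and 2.30. Gm3279, 3.31 kb from Neurod6, was above 1 FPKM in prefrontal NeuN- nuclei alone, at 1.26 and 1.44. Etv1 had no neighbour in that distance.

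For each gene the 3 features with the nearest profile over the 8 libraries were found by the Euclidean distance of centred log2(scaled FPKM + 1). The search left out every feature whose highest group average was under 5 scaled FPKM. Eomes (highest average 3.30) and Neurod6 (4.70) were themselves under that level, so features as low as these genes were not searched. Nearest here means nearest among the searched features, not among all features. Nearest to Neurod1 were Cbln3 (distance 0.605), Gm2694 (0.954) and Mrln (1.20); Cbln3 averaged 223, 70.5, 3.38 and 3.91 scaled FPKM in cerebellar NeuN+, cerebellar NeuN-, prefrontal NeuN+ and prefrontal NeuN- nuclei. Nearest to Neurod2 were Dpysl4 (0.392), Nmnat2 (0.396) and Kcnj12 (0.410), and nearest to Neurod6 were 2900097C17Rik (0.334), Lrrn3 (0.344) and Mettl25 (0.357). Nearest to Pax6 was St18 (0.442), which averaged 20.5, 9.31, 0.0684 and 5.60 scaled FPKM in the same groups, followed by Zfp467 (0.902) and Thrsp (0.938). Eomes had Ak1 (0.212), Zyx (0.249) and Egln2 (0.252), Fat2 had Gprc5c (0.521), Shisa8 (0.536) and Cdh15 (0.611), and Etv1 had Tmem62 (0.432), Hnrnpm (0.440) and Hapln4 (0.441). Cdh15, like Fat2, encodes a cadherin; it averaged 43.0 scaled FPKM in cerebellar NeuN+ and 8.34 in cerebellar NeuN- nuclei, against 1.24 in prefrontal NeuN+ and 0.646 in prefrontal NeuN- nuclei. Profiles over 8 libraries in 4 groups are few points, and likeness of this kind is a description only.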

How the data were processed

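Nuclear RNA was measured in 8 libraries, 2 for each of 4 groups of sorted nuclei from 1 mouse. The authors deposited FPKM per gene with confidence limits, in Cufflinks format per the file headers. Bowtie 1.1.1, TopHat2 2.1.1, Cufflinks, Trim Galore 0.3.7, Bismark and the build mm9 are listed, with no roles, in the submitters' processing notes. No source used here gives the Cufflinks version, the annotation or the use of strand. The protocol in the labels describes cerebellum; the preparation of cortex is not given there.

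Libraries were scaled by the median ratio over 9109 features at 1 FPKM or more in all libraries, features at 1 FPKM or more in at least 2 libraries were kept, and limma 3.58.1 (R 4.3.3) with a variance trend was fitted to log2(scaled FPKM + 1) over all groups, with 4 residual degrees of freedom and Benjamini-Hochberg adjustment. Values given per library are the deposited FPKM; means are scaled. Fragment counts implied by the limits were within 0.05 of a whole number for 50.0% to 53.4% of low values per library, so no count test was run. The code was tested on simulated data. Alternatives were other scalings, pseudocounts, filters and fits, and leaving out each library.

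The 7 genes, the gene lists and the markers were chosen with earlier results of these data known. Named were the 7 genes, Rbfox3, neighbours within 50 kb, and up to 3 list genes with the largest differences per comparison. Also named were the 3 searched features nearest in profile to each of the 7 genes. Tcf4, Nhlh2, genes below the filter, and the markers in the gate percentages were named after their values were seen. Promoters are from RefSeq. The 114 mouse chromatin and 54 GM12878 samples were not analysed here. One gene of the granule list is counted there but not reported here by name or drawn.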

Additional observations from a re-analysis of the deposited data

Results flagged for a closer look

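For 5 of the 7 genes the gate difference (NeuN+ minus NeuN-) was not the same in cerebellum as in prefrontal cortex, by limma's test of that difference itself on log2(scaled FPKM + 1). Cerebellum minus cortex was 3.90 for Pax6 (adjusted p = 2.4e-06), 2.15 for Fat2 (adjusted p = 1.1e-05), 1.91 for Etv1 (adjusted p = 4.1e-06), 1.23 for Neurod1 (adjusted p = 1.3e-04) and -0.50 for Neurod6 (adjusted p = 0.0338). Pax6 and Etv1 had opposite signs in the regions, with both libraries of each gate on the same side. The prefrontal difference was -2.99 for Pax6 but only -0.28 for Etv1. That of Etv1 lost its call with summed FPKM made equal, though it stayed negative, so whether it passed depends on the scaling. Fat2 was listed at 0 in prefrontal NeuN+ nuclei, so the size of its value depends on the pseudocount. It was next to 0 in prefrontal NeuN- nuclei too, so its prefrontal gate difference (-0.03) had to be small. Its value therefore restates its cerebellar gate difference of 2.13. Neurod6 was near the floor in both cerebellar gates (difference -0.03), so its value mainly restates its prefrontal gate difference of 0.46. The Neurod6 value did not pass in 6 of the 8 repeats that leave out a library: -0.54 without cerebellar NeuN+ replicate 1, -0.43 without cerebellar NeuN+ replicate 2, -0.37 without cerebellar NeuN- replicate 1, -0.38 without prefrontal NeuN+ replicate 2, -0.54 without prefrontal NeuN- replicate 1 and -0.45 without prefrontal NeuN- replicate 2. Over all features, 33.1% had a gate change called larger in cerebellum and 37.0% smaller. Rbfox3, the gene behind the sort, shifted too, by 1.34 (adjusted p = 3.3e-05), from gate differences of 1.81 in cerebellum and 0.47 in cortex. Of the 7 general neuron markers, which include Rbfox3, 5 were called larger in cerebellum and 0 smaller, with a median of 0.84. A larger gate change in cerebellum was thus not particular to these genes, and its cause was not tested.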

How the results depend on the processing

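Of 613 values of the 7 genes under 18 alternatives, 574 kept their direction and their side of the threshold, 15 lost their call, 12 gained one and 12 changed sign; for 26 of 35 results every alternative kept both. Counts of called features, higher and lower together, stayed within 1.5 times in every alternative. With the stricter filter, which tested fewer features, calls higher in cerebellar than in prefrontal NeuN- nuclei numbered 3783, against 5822, and lower calls for the difference between the gate changes 3477, against 5319. In the prefrontal gate comparison, Neurod1 (0.10) was -0.05 without scaling, 0.23 with equal sums and 0.24 with quantile normalization; Neurod6 (0.46) lost its call without scaling (0.28) and at a pseudocount of 0.1 (0.57); Eomes (0.20) gained one with equal sums (0.23), quantile normalization (0.34), a pseudocount of 0.1 (0.73) and no variance trend (0.20); and Etv1 (-0.28) lost its call with equal sums (-0.07). In the cerebellar gate comparison, Neurod6 (-0.03) was 0.47 with quantile normalization. Between the regions in NeuN- nuclei, Etv1 (-0.19) was 0.11 with equal sums and 0.03 with quantile normalization. For the difference between the gate changes, Neurod2 (-0.06) was 0.13 without scaling and 0.22 at a pseudocount of 5; Neurod6 (-0.50) lost its call without scaling (-0.31), with quantile normalization (-0.04), at a pseudocount of 0.1 (-0.65) and without a filter (-0.50); and Eomes (0.27) gained one without scaling (0.31), with quantile normalization (0.42), at a pseudocount of 5 (0.18) and with no variance trend (0.27), and was -0.11 at a pseudocount of 0.1. The causes were not tested. Leaving out 1 library at a time, the changed results ranged as follows: in the prefrontal gate comparison Neurod1 -0.00099 to 0.19, Neurod6 0.35 to 0.58 and Eomes 0.12 to 0.27; in the cerebellar gate comparison Neurod6 -0.16 to 0.09; and for the difference between the gate changes Neurod2 -0.16 to 0.04, Neurod6 -0.62 to -0.37 and Eomes 0.19 to 0.34. The stricter filter, at least 5 FPKM in 2 libraries, dropped Neurod6 and Eomes, which then gave no value.

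Replicate numbers come from the titles, and all 8 libraries share an animal. The labels do not say what else same-numbered libraries share, so the main fit did not pair them. Same-numbered deviations correlated between -0.045 and 0.0342. With the replicate block, 10343 features were called in the prefrontal gate comparison, against 10431 without it, and no call among the 7 genes changed.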
